A study of Mus musculus with 10 samples.

Results

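The genes described here are 40 genes of the mitotic spindle, the kinetochore and cytokinesis, taken by symbol from the table of gene counts of the 2-week mRNA libraries, which held 23360 genes. They are a list of symbols with no threshold on a measured value, but the list was drawn up with earlier results of these data known, so shares of its members beside those of all genes are descriptions. It was read in heart ventricles of C57BL/6 mice in 2 groups, Trbp-cKO mice and wild-type (WT) mice, each with 2 libraries at 2 weeks of age. RNA was extracted with Trizol and sequenced as mRNA, and the libraries held 13156463 and 13540494 counts over genes in Trbp-cKO and 13113021 and 10151180 counts in WT. The promoter or Cre driver behind the deletion, and whether replicates were separate animals, is not stated in the sources used here. The p-values therefore measure only the spread between these libraries, which may be technical. Tarbp2, the gene of the double-stranded RNA-binding protein TRBP, was at 3.87 and 3.89 CPM (counts scaled to the library's size) in Trbp-cKO ventricles, against 12.7 and 11.5 CPM in WT ventricles. It fell by 1.64 on the log2 scale (SE 0.17, edgeR adjusted p = 6.53e-04), in the direction of the labels.

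When a cell divides, cyclin B with its kinase CDK1 drives entry into mitosis, the kinetochores built on centromeres tie chromosomes to spindle microtubules, and a checkpoint holds the cell until every chromosome is attached. The anaphase-promoting complex then starts chromosome separation, and the central spindle and an actomyosin ring split the cell. Most of these genes are transcribed in G2 and M phase, under control by the DREAM and MuvB complexes at CHR elements and activation through CCAAT boxes bound by NF-Y. In the mouse heart, cardiomyocytes largely stop dividing in the first weeks after birth, while fibroblasts, endothelial cells and leukocytes go on dividing at a low rate.

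The mitosis genes were lower in Trbp-cKO ventricles nearly throughout. Of the 40 genes, 39 passed the filter on low counts, 37 of them fell and 0 rose, at a Benjamini-Hochberg adjusted p under 0.05 in edgeR's quasi-likelihood test. In DESeq2 0 rose as well, and all 39 tested genes had values below 0 on the log2 scale. Over all 13625 genes tested, 4.2% fell and 5.17% rose. The genes without a call were the centromeric histone gene Cenpa and the kinetochore gene Ndc80, and Cdc25c, the gene of a phosphatase that activates CDK1, was too low to be tested. Ccnb1, Melk, Ttk and Nuf2 passed the filter only through the WT libraries, with no Trbp-cKO library over its cutoff of 0.761 CPM. In 5 more, Plk1, Bub1, Ndc80, Spc25 and Kif2c, only 1 Trbp-cKO library was over it on the scaled CPM, while both WT libraries were. In Ccnb2 and Ect2 Trbp-cKO replicate 1 lay close to the cutoff (0.774 CPM and 10 counts in each gene). The filter itself reads CPM before this scaling, so both genes may also have entered with only 1 Trbp-cKO library over it. Among the genes tested, a high WT level was thus in part a condition of entry. With no filter, where all 40 genes were fitted, 38 fell, against 4.26% of the 17642 genes in that fit, and the median log2 fold change of the 40 genes was -1.85, against -0.01 over all genes. In 39 of the 40 genes both Trbp-cKO libraries lay below both WT libraries, a pattern that 27.1% of all tested genes had, and only in Cdc25c did the genotypes overlap.

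Most of the falls were over 2-fold. Among the members, 34 fell more than 2-fold and 15 more than 4-fold, whereas 1.45% and 0.462% of all tested genes did so. Summed over the 40 genes, the level was 127 and 142 CPM in Trbp-cKO, against 364 and 392 CPM in WT. In DESeq2, 28 of the members fell, against 2.33% of all tested genes. The sums above rest on 1638 and 1898 counts in Trbp-cKO and on 4833 and 4042 counts in WT, so many single members were measured with few reads. The SE of a member's log2 fold change ran between 0.10 and 0.66, while the median over all tested genes was 0.12. Without WT replicate 1 the number of members that fell was 18, when 0.932% of all genes fell, and without WT replicate 2 it was 16, when 0.947% of all genes fell. The calls that ended in DESeq2 were those of Ccnb1, Plk1, Melk, Mad2l1, Espl1, Aurkb, Incenp, Kif2c and Kif4 (adjusted p 0.0509 to 0.243). With the transcript rows of a gene summed, those of Ccnb1, Plk1, Aurkb, Kif2c and Tpx2 ended (edgeR adjusted p 0.0527 to 0.0737). Of these only Tpx2 had more than 1 row, so the counts of the others were the same in that fit.

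**Figure D1:**
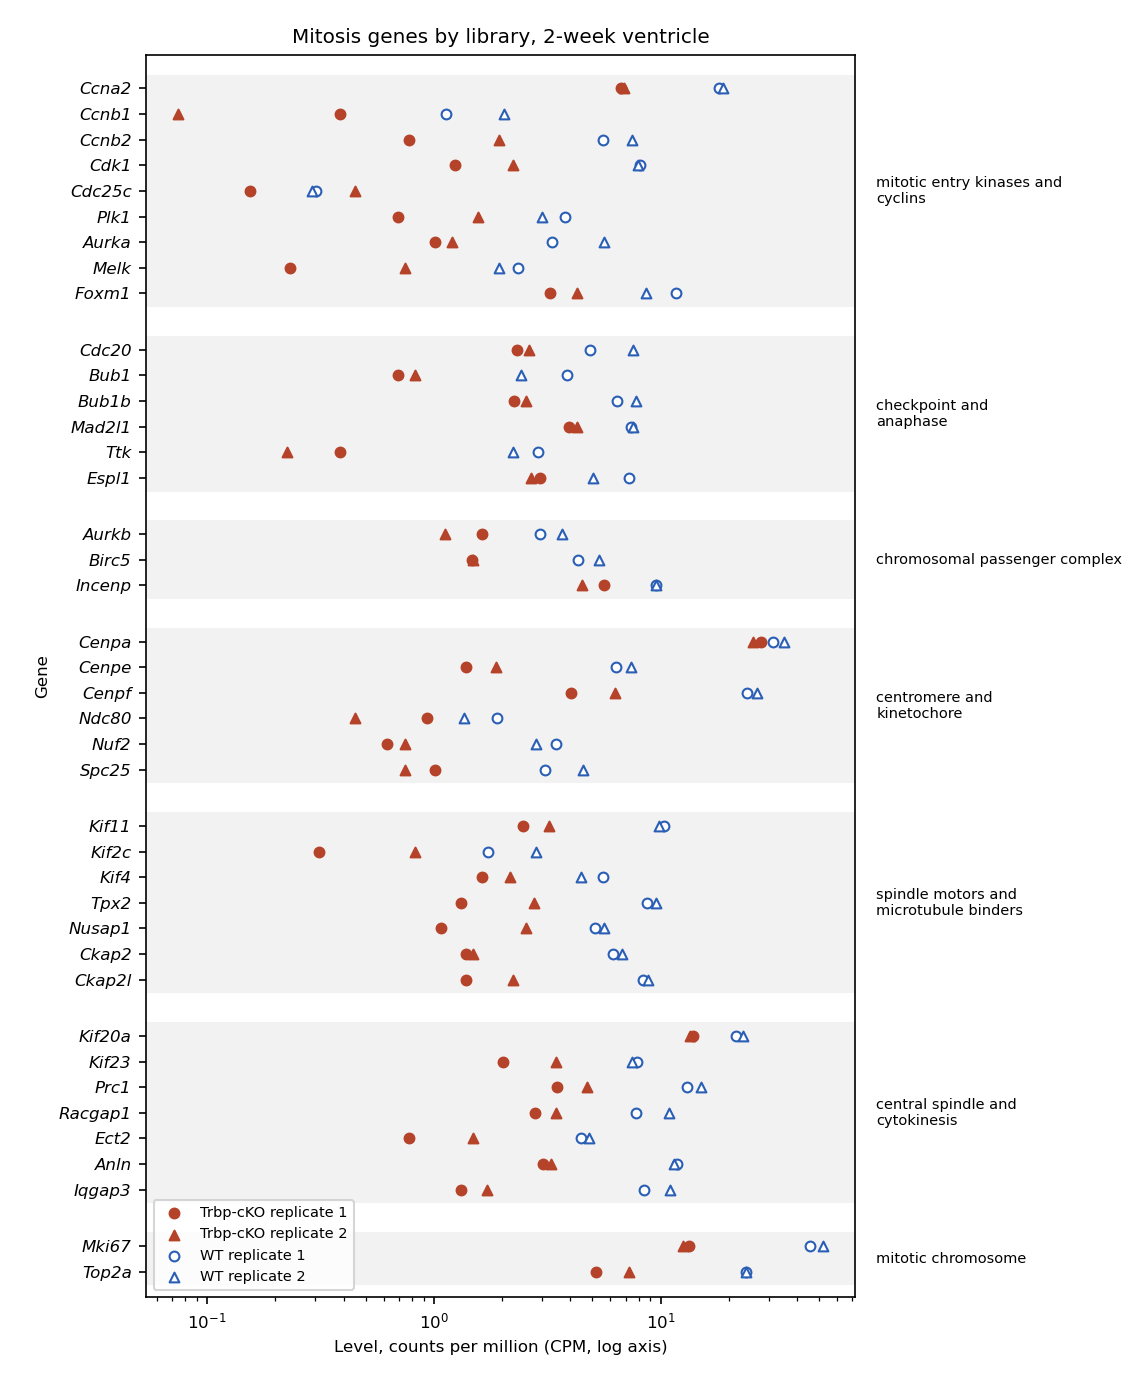
Level of each of the 40 mitosis genes in each library, in CPM on a log axis, grouped by role; filled red symbols are the Trbp-cKO libraries and open blue symbols the WT libraries. Both red symbols lie left of both blue ones in 39 genes, and Cdc25c is the gene whose symbols overlap.

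Promoter windows of these genes often held the letters of the CHR and CCAAT elements. Windows of 250 bases before to 50 bases after the annotated start were available from RefSeq (GRCm38.p6) for 33 of the 40 genes, not including Ccna2, Cdc25c, Foxm1, Aurkb, Incenp, Tpx2 and Kif20a. They were searched on both strands for the CHR-type hexamers TTTGAA and TTCGAA and for the NF-Y pentamer CCAAT, and no 2 matches of different motifs overlapped in these windows. Of the 33 windows 26 (78.8%) held either hexamer, against 13.5% of the windows of tested genes and 19.4% of the windows of all genes. Between 100 bases before and 50 bases after the start, 24 windows (72.7%) held one, against 5.21% of tested genes. CCAAT was present in 24 windows (72.7%), against 38.5% of tested genes, and 15 windows (45.5%) held at least 2 matches, against 14.6% of tested genes. Both a hexamer and a CCAAT were found in 22 windows (66.7%), against 5.62% of tested genes. A match is a string of letters, not a measured binding site.

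The stretches below run between 150 bases before and 30 bases after the start, 5′ to 3′ on the gene's strand, for the 5 genes of the list with the lowest expression p and for Cenpa, which was not called. Capitals mark the matches, and a match on the opposite strand reads TTCAAA for TTTGAA and ATTGG for CCAAT.
Mki67, chr7:135716350-135716529, minus strand: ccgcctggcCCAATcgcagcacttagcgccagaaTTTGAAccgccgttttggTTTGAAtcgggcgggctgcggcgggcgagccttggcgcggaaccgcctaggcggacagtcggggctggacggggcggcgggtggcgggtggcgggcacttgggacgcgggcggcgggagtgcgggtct
Top2a, chr11:99024160-99024339, minus strand: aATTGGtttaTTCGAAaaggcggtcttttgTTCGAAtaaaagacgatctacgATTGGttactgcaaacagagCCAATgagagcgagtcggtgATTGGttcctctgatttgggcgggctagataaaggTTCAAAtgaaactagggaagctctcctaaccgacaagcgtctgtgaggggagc
Iqgap3, chr3:88081901-88082080, plus strand: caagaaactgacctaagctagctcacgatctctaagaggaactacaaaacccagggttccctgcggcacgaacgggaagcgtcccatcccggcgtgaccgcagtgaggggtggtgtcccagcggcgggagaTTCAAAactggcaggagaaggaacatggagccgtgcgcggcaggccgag
Cenpf, chr1:189688057-189688236, minus strand: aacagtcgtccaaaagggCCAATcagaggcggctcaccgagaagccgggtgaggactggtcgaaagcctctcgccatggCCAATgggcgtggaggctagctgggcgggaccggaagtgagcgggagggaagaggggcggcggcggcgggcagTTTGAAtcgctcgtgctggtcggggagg
Anln, chr9:22389177-22389356, minus strand: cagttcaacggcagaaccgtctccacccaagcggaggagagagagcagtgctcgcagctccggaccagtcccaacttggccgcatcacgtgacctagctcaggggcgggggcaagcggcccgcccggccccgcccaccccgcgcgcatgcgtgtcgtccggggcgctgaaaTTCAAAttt
Cenpa, chr5:30666736-30666915, plus strand: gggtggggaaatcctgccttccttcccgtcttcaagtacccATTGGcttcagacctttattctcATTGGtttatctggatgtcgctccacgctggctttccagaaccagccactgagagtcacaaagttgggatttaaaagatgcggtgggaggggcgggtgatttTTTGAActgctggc
Mki67 had 2 hexamers and Top2a 3 in the printed stretch, with 1 and 4 CCAAT matches. Iqgap3 and Anln each had 1 hexamer and no CCAAT, and Cenpf had 1 hexamer just after its start and 2 CCAAT matches upstream. Cenpa, whose level did not pass the test, had 1 hexamer and 2 CCAAT matches as well. Ccnb1, Melk, Mad2l1, Birc5, Cenpe, Nuf2 and Nusap1 fell and had no hexamer in their windows.

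**Figure D2:**
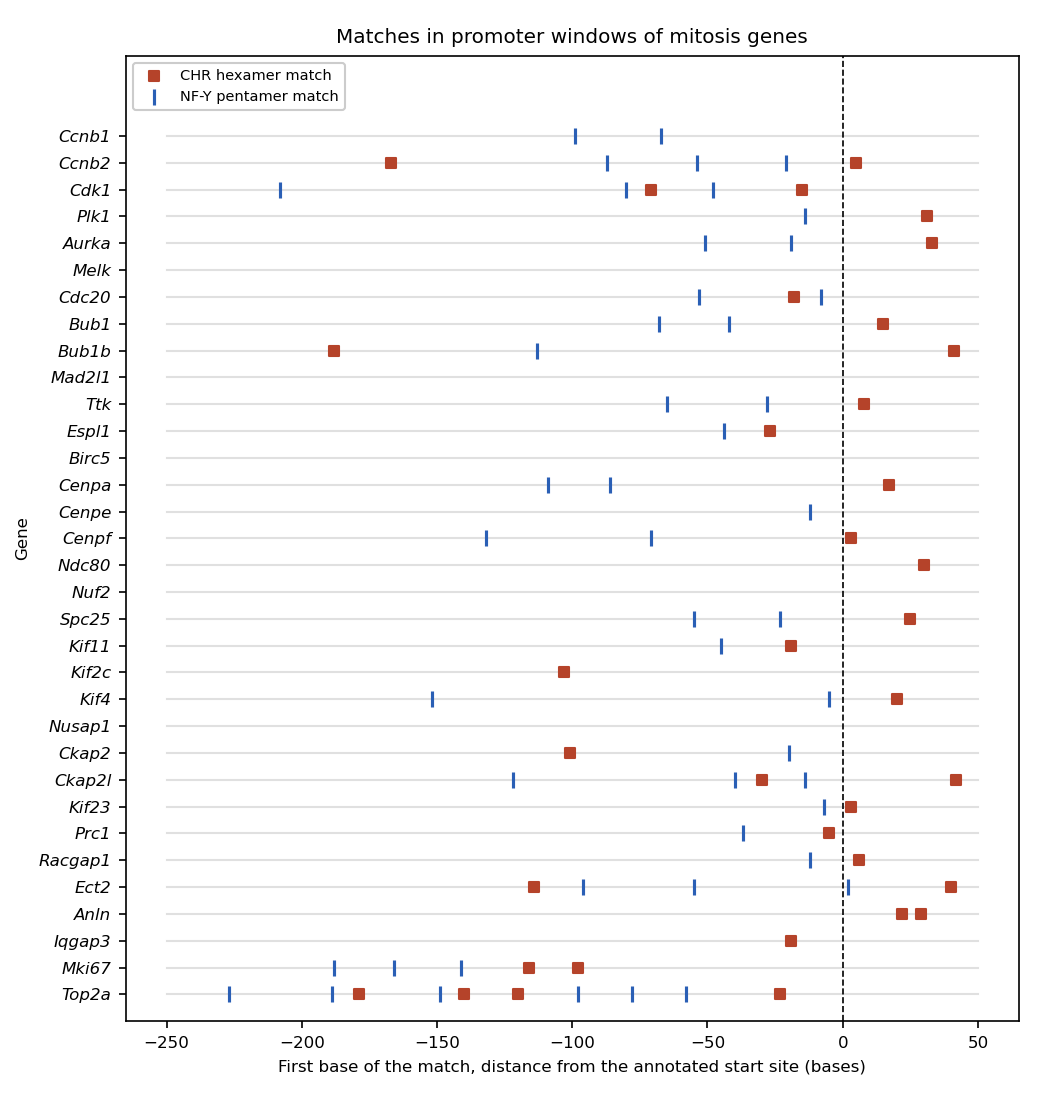
Position of motif matches in the 33 available promoter windows, as the distance of the first base of each match from the annotated start in bases; red squares are TTTGAA or TTCGAA on either strand and blue ticks CCAAT on either strand. Squares crowd around the start in most rows, and 7 rows have none.

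The genes of mitotic entry fell together. Of 9 genes 8 were tested and all 8 fell, with a median log2 fold change of -2.05 and a summed level of 14.4 and 19.4 CPM in Trbp-cKO, against 54.4 and 55.8 CPM in WT. Cdk1, the kinase that drives entry into mitosis, was at 1.24 and 2.24 CPM in Trbp-cKO, against 8.14 and 7.95 CPM in WT (16 and 30 counts against 108 and 82). The WT libraries lay close together and both Trbp-cKO libraries were far below them, a 4.59-fold fall (log2 fold change -2.20, SE 0.27, edgeR adjusted p = 0.00133). Its partner cyclin gene Ccnb1 had 5 and 1 counts in Trbp-cKO, against 15 and 21 counts in WT. The groups did not overlap, but so few reads fix the size poorly: the count ratio per library size was 0.149, with an exact 95% interval of 0.0515 to 0.358 that covers counting error only (edgeR adjusted p = 0.0329). Ccnb2, the gene of the other mitotic B cyclin, was at 0.774 and 1.94 CPM in Trbp-cKO, against 5.58 and 7.46 CPM in WT, 4.71-fold lower (edgeR adjusted p = 0.00991). Ccna2, whose cyclin acts in S phase and at entry into mitosis, was at 6.66 and 6.88 CPM in Trbp-cKO, against 18.1 and 18.9 CPM in WT. Its libraries agreed closely within each genotype, and the fall was 2.73-fold (SE 0.15 on the log2 scale, edgeR adjusted p = 5.50e-04).

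Among the kinases that act with CDK1, Aurka, the gene of the centrosomal Aurora kinase, averaged 1.10 ± 0.134 CPM in Trbp-cKO and 4.47 ± 1.63 CPM in WT (SD, n = 2 each), a 3.97-fold fall. Its libraries in Trbp-cKO were alike and both below WT. Plk1, the gene of the polo kinase that acts at centrosomes and kinetochores, had 9 and 21 counts in Trbp-cKO, against 50 and 31 counts in WT, a 2.98-fold fall. Melk, a kinase gene expressed in dividing and progenitor cells, had 3 and 10 counts in Trbp-cKO, against 31 and 20 counts in WT, a 4.29-fold fall. In both genes Trbp-cKO replicate 1 was the lowest library. Foxm1, the gene of the transcription factor that activates many G2 and M phase genes, was at 3.25 and 4.26 CPM in Trbp-cKO, against 11.7 and 8.63 CPM in WT. The genotypes were apart although the WT libraries differed from each other, and the fall was 2.71-fold (edgeR adjusted p = 0.00427). Cdc25c did not follow: it had 2 and 6 counts in Trbp-cKO, against 4 and 3 counts in WT, and its count ratio of 1.02 had an interval of 0.325 to 3.32, so a change was not detectable at this depth. Ccna2 and Cdk1 passed in every fit that left out 1 library. The call of Foxm1 ended without WT replicate 1, that of Aurka without WT replicate 2, and those of Ccnb1, Ccnb2, Plk1 and Melk without either one of them (adjusted p 0.0665 to 0.236). Ccnb1 also lost its call without Trbp-cKO replicate 2, and Plk1 and Melk without Trbp-cKO replicate 1 (0.0975 to 0.124). Without Trbp-cKO replicate 2 the log2 fold change was -1.97 for Ccnb1, -3.05 for Ccnb2, -2.27 for Plk1 and -3.16 for Melk. Without Trbp-cKO replicate 1 it was -4.20 for Ccnb1, -1.12 for Plk1 and -1.51 for Melk. Over all fits the value of Ccnb2 ran from -3.05 to -1.73.

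All 6 genes of the spindle checkpoint and of anaphase fell, with a median log2 fold change of -1.43. Ttk, the gene of the MPS1 kinase that starts checkpoint signalling, was among the members that passed the filter only through WT: it had 5 and 3 counts in Trbp-cKO, against 38 and 23 counts in WT. Both Trbp-cKO libraries were near the floor, and the count ratio of 0.118 had an interval of 0.0486 to 0.247 (edgeR adjusted p = 0.00366). Bub1, a checkpoint kinase gene, was at 0.697 and 0.822 CPM in Trbp-cKO, against 3.85 and 2.42 CPM in WT, a 4.14-fold fall. Bub1b, which encodes the checkpoint protein BUBR1, was at 2.25 and 2.54 CPM in Trbp-cKO, against 6.41 and 7.75 CPM in WT. Its Trbp-cKO libraries were alike and well under the lower WT library, and it fell 2.94-fold (edgeR adjusted p = 0.00322). Cdc20, the activator of the anaphase-promoting complex that the checkpoint holds back, was at 2.32 and 2.62 CPM in Trbp-cKO, against 4.90 and 7.56 CPM in WT, a 2.49-fold fall. Espl1, the gene of separase, which cuts cohesin at anaphase, was at 2.94 and 2.69 CPM in Trbp-cKO, against 7.24 and 5.04 CPM in WT, a 2.2-fold fall. In both genes the WT libraries were further apart than the Trbp-cKO libraries. Mad2l1, whose protein MAD2 binds CDC20, was at 3.95 and 4.26 CPM in Trbp-cKO, against 7.39 and 7.56 CPM in WT, a smaller fall of 1.82-fold with little spread in either genotype. The calls of Bub1 and Ttk ended without WT replicate 1, those of Cdc20 and Bub1b without WT replicate 2, and those of Mad2l1 and Espl1 without either one (adjusted p 0.0547 to 0.202). Those of Cdc20, Espl1 and Mad2l1 also ended without either Trbp-cKO replicate 1 or Trbp-cKO replicate 2 (0.053 to 0.0925).

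The 3 members of the list that belong to the chromosomal passenger complex, which corrects faulty attachments and later marks the cleavage plane, all fell. Aurkb, the gene of its kinase, was at 1.63 and 1.12 CPM in Trbp-cKO, against 2.94 and 3.68 CPM in WT, a 2.39-fold fall (edgeR adjusted p = 0.0379). Birc5, the gene of survivin, was at 1.47 and 1.49 CPM in Trbp-cKO, against 4.30 and 5.33 CPM in WT, a 3.21-fold fall (edgeR adjusted p = 0.00508). Incenp, the gene of the scaffold subunit, was at 5.65 and 4.48 CPM in Trbp-cKO and at 9.5 CPM in each WT library, a 1.87-fold fall (edgeR adjusted p = 0.0155). In all 3 genes the groups were separate, and the fold of Incenp was the smallest. The calls of Aurkb and Incenp ended without either WT replicate 1 or WT replicate 2 and that of Birc5 without WT replicate 2 (adjusted p 0.0722 to 0.226). That of Aurkb also ended without either Trbp-cKO replicate, and that of Incenp without Trbp-cKO replicate 2 (0.0533 to 0.146).

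At the centromere and kinetochore 4 of 6 genes fell. Cenpf, the gene of a large outer kinetochore protein made in G2, was at 4.03 and 6.28 CPM in Trbp-cKO, against 24.1 and 26.5 CPM in WT. Its groups were far apart, and the 4.88-fold fall (log2 fold change -2.29, SE 0.20, edgeR adjusted p = 3.78e-04) passed without any 1 library. Cenpe, the gene of a kinetochore motor that moves chromosomes to the spindle equator, was at 1.39 and 1.87 CPM in Trbp-cKO, against 6.33 and 7.37 CPM in WT, a 4.16-fold fall that also passed without any 1 library. Nuf2 and Spc25 encode subunits of the NDC80 complex that grips microtubules. Nuf2 was at 0.619 and 0.747 CPM in Trbp-cKO, against 3.47 and 2.81 CPM in WT, a 4.57-fold fall. Spc25 was at 1.01 and 0.747 CPM in Trbp-cKO, against 3.09 and 4.56 CPM in WT, a 4.28-fold fall. Both genes had separate groups, and the call of Nuf2 ended without WT replicate 1 and that of Spc25 without WT replicate 2 (adjusted p 0.0824 to 0.0865). Ndc80 itself, which gives that complex its name, had 12 and 6 counts in Trbp-cKO, against 25 and 14 counts in WT. Its groups were separate, and its log2 fold change of -1.25 (SE 0.46) did not pass (edgeR adjusted p = 0.133). Over all fits the log2 fold change of Ndc80 ran from -1.85, without Trbp-cKO replicate 1, to -0.82. The count ratio was 0.414, with an interval of 0.223 to 0.741. Cenpa, the histone H3 variant gene that defines centromeres, was at 27.6 and 25.6 CPM in Trbp-cKO, against 31.3 and 35.0 CPM in WT. It was measured with more reads than any other of the 6 genes, had the smallest difference of all tested members (log2 fold change -0.31, SE 0.10), and did not pass with the filter (edgeR adjusted p = 0.0792) but did with no filter (0.0469).

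The 7 genes of spindle motors and microtubule binders all fell, with a median log2 fold change of -1.95, and their summed level was 9.6 and 15.2 CPM in Trbp-cKO, against 46 and 47.8 CPM in WT. Kif11, the gene of the kinesin that pushes spindle poles apart, was at 2.48 and 3.21 CPM in Trbp-cKO, against 10.3 and 9.79 CPM in WT, a 3.51-fold fall (edgeR adjusted p = 7.93e-04). Tpx2, the gene of a protein that activates Aurora A and nucleates microtubules, was at 1.32 and 2.77 CPM in Trbp-cKO, against 8.75 and 9.5 CPM in WT. The Trbp-cKO libraries differed from each other, and both were below the WT libraries (4.43-fold lower, edgeR adjusted p = 0.00339). Nusap1, the gene of a microtubule-bundling protein, was at 1.08 and 2.54 CPM in Trbp-cKO, against 5.13 and 5.62 CPM in WT, a 2.93-fold fall. Ckap2, a spindle-associated gene, was at 1.39 and 1.49 CPM in Trbp-cKO, against 6.18 and 6.78 CPM in WT, and its relative Ckap2l at 1.39 and 2.24 CPM in Trbp-cKO, against 8.37 and 8.82 CPM in WT. These falls were 4.45-fold and 4.69-fold, and the WT libraries were close together in both genes. Kif2c, the gene of a kinesin that takes microtubules apart at kinetochores, had 4 and 11 counts in Trbp-cKO, against 23 and 29 counts in WT, a 3.87-fold fall. Kif4, the gene of a chromosome-bound kinesin, was at 1.63 and 2.17 CPM in Trbp-cKO, against 5.58 and 4.46 CPM in WT, a 2.65-fold fall. Kif11, Ckap2 and Ckap2l passed without any 1 library, whereas the calls of Kif2c, Kif4, Nusap1 and Tpx2 ended without either WT replicate 1 or WT replicate 2 (adjusted p 0.0589 to 0.253) and those of Kif2c, Kif4 and Nusap1 also without Trbp-cKO replicate 1 (0.0567 to 0.139). Without Trbp-cKO replicate 2 the log2 fold change was -2.81 for Kif2c, -2.78 for Tpx2 and -2.30 for Nusap1. Without Trbp-cKO replicate 1 it shrank to -1.43 for Kif2c and -1.07 for Nusap1. Over all fits the value of Tpx2 ran from -2.78 to -1.72.

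All 7 genes of the central spindle and of cytokinesis fell, with a median log2 fold change of -1.77. Iqgap3, which encodes an IQGAP scaffold protein of dividing cells, was at 1.32 and 1.72 CPM in Trbp-cKO, against 8.45 and 11.0 CPM in WT. Both Trbp-cKO libraries were far below both WT libraries, and the fall was 6.31-fold (log2 fold change -2.66, SE 0.25, edgeR adjusted p = 3.40e-04). Anln, the gene of anillin, which links actin and myosin in the contractile ring, was at 3.02 and 3.29 CPM in Trbp-cKO, against 11.8 and 11.5 CPM in WT, a 3.68-fold fall with little spread in either genotype (edgeR adjusted p = 3.78e-04). Prc1, the gene of the protein that bundles central spindle microtubules, was at 3.48 and 4.71 CPM in Trbp-cKO, against 13.1 and 15.0 CPM in WT, a 3.42-fold fall. Iqgap3, Anln and Prc1 passed without any 1 library.

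Kif23 and Racgap1, the genes of the kinesin and the GTPase-activating protein that form centralspindlin, fell 2.8-fold and 2.96-fold. Kif23 averaged 2.73 ± 1.01 CPM in Trbp-cKO and 7.65 ± 0.268 CPM in WT, and Racgap1 averaged 3.11 ± 0.46 CPM in Trbp-cKO and 9.31 ± 2.18 CPM in WT (SD, n = 2 each). Ect2, the gene of the exchange factor that centralspindlin recruits for cytokinesis, was at 0.774 and 1.49 CPM in Trbp-cKO, against 4.45 and 4.85 CPM in WT, a 4.04-fold fall. Kif20a, the gene of a kinesin of the central spindle, was at 13.9 and 13.5 CPM in Trbp-cKO, against 21.5 and 23.1 CPM in WT, a 1.62-fold fall that was the smallest among the called members (edgeR adjusted p = 0.00709). Its span overlaps those of Brd8 and Cdc23, and how reads there were counted is not stated in the sources used here. The calls of Ect2, Kif20a and Kif23 ended without either WT replicate 1 or WT replicate 2, and that of Racgap1 without WT replicate 2 (adjusted p 0.0632 to 0.0976).

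Both genes of mitotic chromosomes fell, and both were measured with many reads. Mki67, the gene of the Ki-67 protein that coats mitotic chromosomes and serves as the usual marker of cycling cells, had 173 and 168 counts in Trbp-cKO, against 607 and 535 counts in WT. In CPM these were 13.4 and 12.6 in Trbp-cKO, against 45.8 and 51.9 in WT. The groups were far apart, with a log2 fold change of -1.91 (SE 0.10, edgeR adjusted p = 1.03e-05), and both genes passed without any 1 library. Top2a, the gene of the topoisomerase that untangles sister chromosomes, was at 5.19 and 7.25 CPM in Trbp-cKO and at 23.9 CPM in each WT library (log2 fold change -1.94, SE 0.17, edgeR adjusted p = 2.44e-04). The fall of both genes lay near the median of the 39 tested members, which was -1.88.

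**Figure D3:**
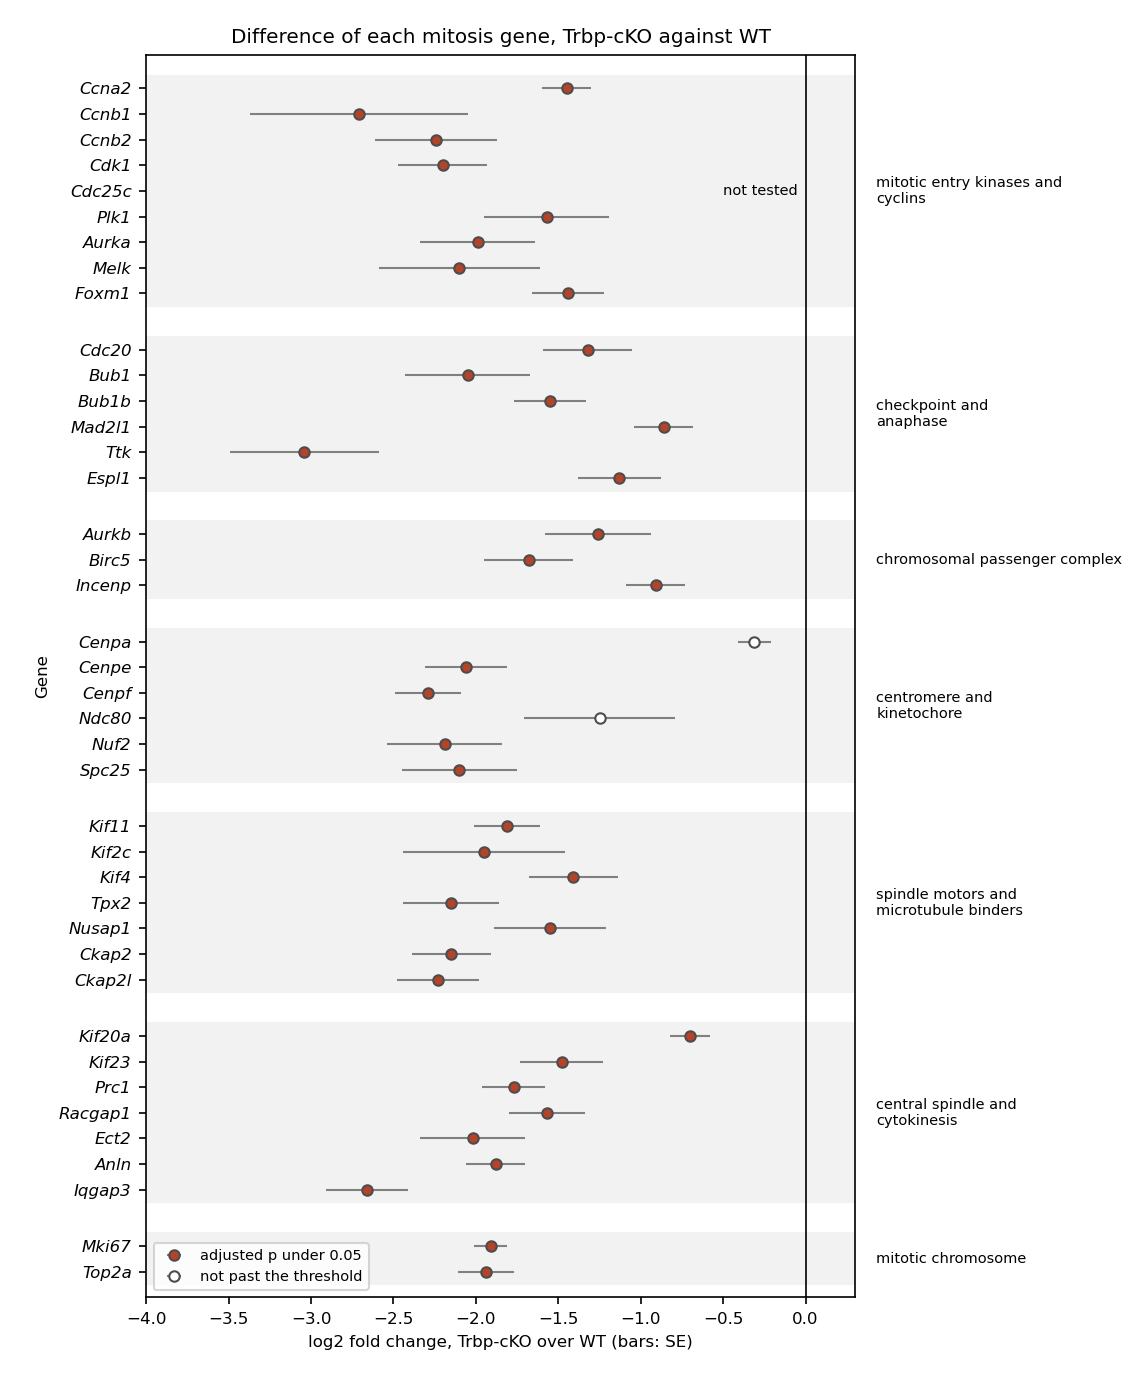
Log2 fold change, Trbp-cKO over WT, of each tested mitosis gene with its standard error, grouped by role. All 39 values are below 0, Ttk (-3.04) and Ccnb1 (-2.71) have wide error bars, and Cenpa and Ndc80 are the genes that did not pass the test.

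Other genes of cell division, taken from lists of pathway members drawn up for comparison, were read in the same fit. With no filter, 34 of 54 further mitosis genes fell, with a median log2 fold change of -1.57. Of the 48 tested with the filter, 34 fell and 0 rose, with a median of -1.59. Some of these, such as Knl1, passed the filter only through the WT libraries. The counts of falls were 15 in DESeq2, 8 and 7 without WT replicates 1 and 2 and 18 without Trbp-cKO replicate 1. Hmmr, the gene of a spindle protein that binds hyaluronan, averaged 1.10 ± 0.134 CPM in Trbp-cKO and 6.22 ± 0.798 CPM in WT (SD, n = 2 each; log2 fold change -2.48). Falls were also measured for Knl1, the kinetochore scaffold gene to which the BUB proteins bind (log2 fold change -2.42), and for Aspm, a spindle pole gene (-1.78). Hmmr, Knl1 and Aspm passed without any 1 library. The fall was not uniform: 14 of the 48 genes had no call. Among these Zwint (-0.02), Kif18a (-0.02), Cit (-0.07) and Cenpq (-0.09) were near 0, and others lay lower, such as Ska1 (-1.99). Of 8 condensin subunits 5 fell, among them Ncapg2 (log2 fold change -1.29), Ncaph (-1.09), Smc2 (-0.98) and Ncapd2 (-0.53). Of the 8 subunits 1 fell without WT replicate 1 or without WT replicate 2, and 3 fell without Trbp-cKO replicate 1 and in DESeq2. The remaining 3 were Smc4 at -0.19, Ncapd3 at 0.05 and Ncaph2 at -0.02.

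Mitotic complexes that cells also use outside mitosis had medians near 0. Among 9 genes of cohesin and its regulators 0 passed in edgeR or in DESeq2, with 1 at an unadjusted p under 0.05, and the median was 0.13. The loader gene Nipbl was at 0.19 (SE 0.07, edgeR adjusted p = 0.131) and Stag1 at 0.17 (SE 0.08, 0.225). Of 15 genes of the anaphase-promoting complex 0 fell and 1 rose, Anapc16, at 60.7 ± 1.2 CPM in Trbp-cKO and 44.9 ± 3.55 CPM in WT (SD, n = 2 each), with a median of -0.02 over the 15. The rise ended without Trbp-cKO replicate 1, WT replicate 1 or WT replicate 2 (adjusted p 0.0523, 0.137 and 0.0547). Of 20 tubulin, kinesin and cortex genes that cells use in mitosis and also when they do not divide, 4 fell and 3 rose, with a median of -0.04. The tubulin genes Tubb4b (log2 fold change -0.72), Tuba1b (-0.50), Tubb5 (-0.41) and Tuba1a (-0.31) fell. Myh10, a non-muscle myosin gene (0.37), Kif1b (0.36) and Numa1, a spindle pole gene (0.33), rose. Without WT replicate 1 or without WT replicate 2, 1 of the 20 genes fell and 0 rose, and in DESeq2 2 fell and 3 rose.

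Regulators of the cycle were mixed. Of 20 DREAM, MuvB and E2F genes 5 fell and 2 rose (median -0.23), with 1 fall and 1 rise in DESeq2. The falls were 0 without WT replicate 1 or without WT replicate 2, and 1 and 2 without Trbp-cKO replicates 1 and 2. The activator genes E2f1 (log2 fold change -1.51) and E2f2 (-1.48) and the repressor gene E2f7 (-1.16) fell. Tfdp2, a dimerization partner of E2F proteins, rose to 231 ± 18.8 CPM in Trbp-cKO, against 111 ± 6.32 CPM in WT (SD, n = 2 each; log2 fold change 1.06, SE 0.08, edgeR adjusted p = 8.64e-05), and passed without any 1 library. Of 9 G1 cyclin and kinase genes 2 fell, Cdk6 (log2 fold change -1.02) and Ccnd1 (-0.99). Of these 0 passed without WT replicate 1 and 1 without WT replicate 2. Among 5 tested inhibitors of cyclin-dependent kinases only Cdkn1b, the gene of p27, rose, by 0.31 on the log2 scale (SE 0.07, edgeR adjusted p = 0.0298), and that call ended with total counts as the scale (0.0532), in DESeq2 (0.189) and in each fit that left out 1 library (0.0703 to 0.193). Of 38 genes of DNA replication and S phase 17 fell and 0 rose, with a median of -0.83, against -1.88 for the mitosis genes, and the difference between the lists was not tested. Among them were Mcm5 (log2 fold change -1.70), Mcm2 (-1.61) and Mcm3 (-1.20), of the replicative helicase, and Chaf1a (-1.28), of a chromatin assembly factor. In DESeq2 the number of falls in S phase genes was 9, without WT replicates 1 and 2 it was 5 and 2, and without Trbp-cKO replicates 1 and 2 it was 10 and 11.

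**Figure D4:**
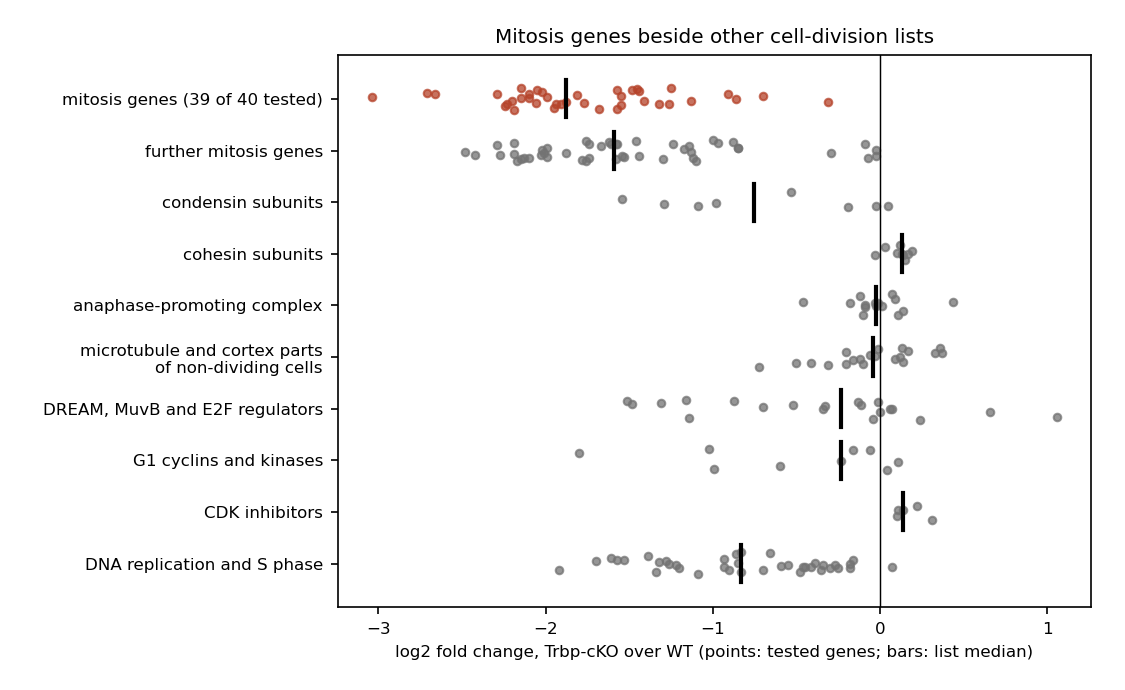
Log2 fold change, Trbp-cKO over WT, of each tested gene of the mitosis list and of 9 other cell-division lists; bars mark list medians. The mitosis genes (median -1.88) and the further mitosis genes (-1.59) lie lowest, S phase genes (-0.83) and condensin (-0.75) between, and cohesin (0.13) and the anaphase-promoting complex (-0.02) near 0.

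The shares of windows with a match were read for these lists as well. Either hexamer was present in 26 of 44 windows (59.1%) of further mitosis genes and in 5 of 7 (71.4%) of condensin genes. It was present in 5 of 15 (33.3%) windows of the DREAM, MuvB and E2F genes, in 6 of 30 (20%) S phase windows, in 2 of 14 (14.3%) of the anaphase-promoting complex and in 0 of 6 of the G1 cyclins and kinases. CCAAT was present in 32 of 44 (72.7%) windows of further mitosis genes, the same share as in the mitosis genes, in 19 of 30 (63.3%) S phase windows, in 4 of 6 (66.7%) of cohesin and in 5 of 14 (35.7%) of the anaphase-promoting complex. These shares are descriptions of the windows available and were not tested.

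In whole ventricle, fewer cells of a type and less RNA per cell cannot be told apart. Markers of the cell types in the tissue were read beside the mitosis genes, and no marker gene with a row was at 0 in every library. The 8 cardiomyocyte markers had a median log2 fold change of 0.16 and summed to 94607 and 100086 CPM in Trbp-cKO, against 84555 and 83306 CPM in WT. Myh6 (0.39), Tnnt2 (0.39), Ryr2 (0.32) and Ttn (0.23) rose and Actn2 (-0.25) fell. The 8 fibroblast markers summed to 1744 and 1957 CPM in Trbp-cKO, against 2179 and 2001 CPM in WT, with falls of the collagen genes Col1a1 (-0.63) and Col1a2 (-0.55) and a list median of -0.03. The 8 endothelial markers summed to 1731 and 1692 CPM in Trbp-cKO, against 1628 and 1624 CPM in WT, with a rise of the receptor gene Tek (0.29) and a list median of 0.09. Of the 8 smooth muscle and pericyte markers 0 passed in edgeR or DESeq2 (2 at an unadjusted p under 0.05 in edgeR, list median 0.12), with sums of 2212 and 2969 CPM in Trbp-cKO, against 2411 and 2735 CPM in WT. Of 8 tested macrophage and leukocyte markers 0 passed in either tool (1 at an unadjusted p under 0.05, median 0.02), with sums of 219 and 229 CPM in Trbp-cKO, against 204 and 227 CPM in WT. Of 4 tested epicardial markers 0 passed in either tool (0 at an unadjusted p under 0.05, median -0.41), with sums of 19.4 and 19.6 CPM in Trbp-cKO, against 19.8 and 25.3 CPM in WT. Of 7 tested erythroid markers 5 fell: Hba-a1 and Hba-a2, which had identical values (-0.47 each), Hbb-b2 and Hbb-bt, whose counts were the same but for WT replicate 2, with 1176 and 1178 (-0.25 each), and Alas2 (-0.48). Each pair is thus close to a single measurement, and the list sum counts its reads under both names. The list had a median of -0.47 and summed to 999 and 1148 CPM in Trbp-cKO, against 1235 and 1506 CPM in WT. Each of the 13 marker calls ended in at least 1 fit that left out a library. The part of these shifts in the falls of the mitosis genes was not tested.

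The Trbp-cKO libraries differed from each other in these genes. Trbp-cKO replicate 2 was above replicate 1 in 30 of the 40 members (75%), by a median of 0.22 on the log2(CPM + 0.5) scale, whereas 49.5% of all tested genes were above, with a median of 0.00. WT replicate 2 was above replicate 1 in 25 of the 40 members (62.5%), with a median of 0.11, against 50.4% of all tested genes. The further mitosis genes (27 of 48, median 0.04) and the S phase genes (18 of 38, median -0.02) were nearer to an even split between the Trbp-cKO libraries. Ccnb2, Nusap1 and Tpx2 were among the members that were higher in Trbp-cKO replicate 2, and Ccnb1 was lower there.

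**Figure D5:**
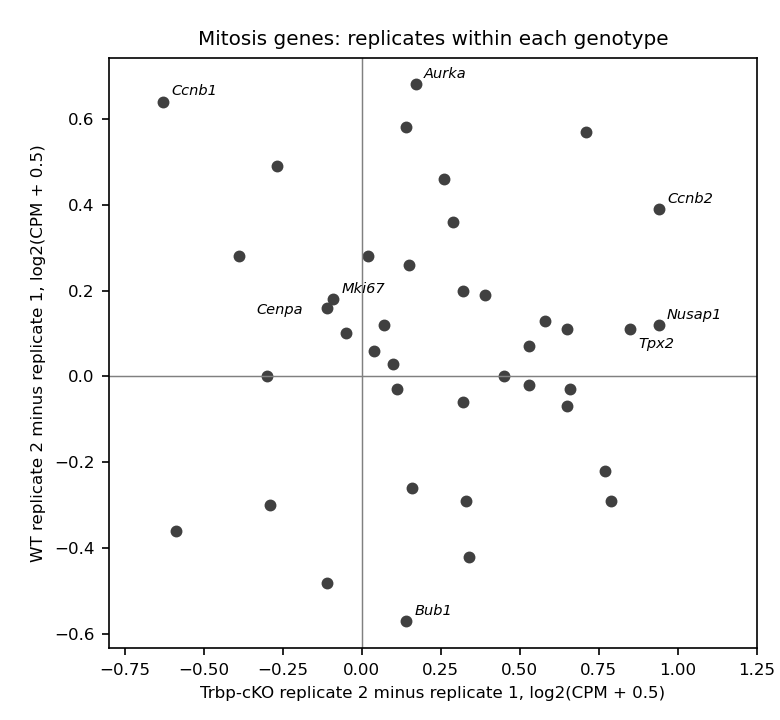
Difference between replicates of each of the 40 mitosis genes, on the log2(CPM + 0.5) scale, with Trbp-cKO replicate 2 minus 1 on the horizontal axis and WT replicate 2 minus 1 on the vertical axis. Of the 40 points 30 lie right of 0 and 25 above 0.

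The authors' deposited table of differential transcripts, where the largest q-value was 0.00972, held 37 of the 40 members, all lower in Trbp-cKO. It rests on the same libraries, so it is not separate evidence. Of all 30635 transcript rows, those without reads included, 1.29% were listed there as lower. Not in the list were Cdc25c, Cenpa and Ndc80, for which the authors' deposited table gave ratios of Trbp-cKO over WT of 1.02, 0.801 and 0.417, with q-values of 1, 0.462 and 0.112. These 3 are the members that also had no call in edgeR here. Reads of some members may be shared with other loci: Ccnb1, Ccnb2, Kif4 and Aurkb have named pseudogenes in the RefSeq table, and the spans of Ccna2, Cdc20, Cdc25c, Aurka, Foxm1, Incenp, Kif11, Kif4, Kif20a, Tpx2, Prc1, Nusap1, Ect2, Anln and Top2a overlap other genes of that table, predicted and small RNA genes included, so their values are uncertain to that extent.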

How the data were processed

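For the 2-week mRNA libraries, raw counts were deposited for each RefSeq transcript. Beside them, per the file headers, the authors deposited a genotype ratio, a p-value and a q-value, which entered no test. The submitters' processing notes name Bowtie 0.12.9, SAMtools 0.1.16, edgeR, CASAVA 1.8.2 and cutadapt 0.9.5, and the build mm10, without roles. How reads were counted, with or without strand, is not stated in the sources used here. The small RNA libraries were not used. Of 30635 rows 30020 matched RefSeq (GRCm38.p6); 110 rows without a name (0.117% to 0.14% of counts) were left out. The row with the highest total was kept per gene, which left 23360 genes. Counts were fitted in R 4.3.3 with edgeR 4.0.16 (filterByExpr, cutoff 0.761 CPM, TMM, robust glmQLFit, glmQLFTest, genotype only) at an adjusted p of 0.05 over 13625 genes, with common biological coefficient of variation 0.103. The fit was also run on counts simulated with the same spread for every gene. The condition there was recovery of median fold changes, which does not cover calls of genes with few counts. CPM uses TMM-scaled sizes, and intervals cover counting error only. Replicates differed beyond sampling noise (chi-square per degree of freedom 9.53 in Trbp-cKO and 5.55 in WT). Named are all members, Tarbp2, up to 4 called genes per list with the smallest p (2 where none passed), and called markers. Smc4, Ncapd3, Ncaph2, Zwint, Kif18a, Cit, Cenpq, Ska1, Tuba1a, Kif1b and Numa1 were named after their values were seen. A further gene under this rule is left out. Members and lists were chosen with earlier results of these data known. Alternatives were other scalings, DESeq2 1.42.0, other filters, summed rows, a replicate block and leaving out each library.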

Additional observations from a re-analysis of the deposited data

How the results depend on the processing

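All tested members had a negative log2 fold change under every alternative except Cdc25c, which was fitted only with no filter (0.03), and 0 rose. The number of members that fell was 37 with DESeq2's size factors and with total counts, 38 with no filter and 32 with summed rows. It was 28 in DESeq2, and 16 with a mean of at least 5 CPM, where only 17 were tested. Of all genes tested, 4.24%, 5.33%, 4.26%, 3.57%, 2.33% and 4.25% fell in these fits, in that order. Leaving out 1 library gave 16 to 31 members that fell and medians of -2.01 to -1.64, over all genes 127 to 438 falls and 129 to 599 rises, where the lone library left in a group is assumed to vary like those of the other group; DESeq2 gave 318 falls and 450 rises, and no filter gave 751 falls. With total counts as the scale, which put the median of all genes at -0.04, 541 genes rose and 726 fell, against 705 and 572 with TMM. The replicate block gave 33 members that fell (Ccnb1, Plk1, Melk and Aurkb were lost, adjusted p 0.0585 to 0.0746) and 439 falls in all. The labels do not say whether same-numbered libraries are paired. Across the tested genes, the replicate difference in Trbp-cKO correlated at 0.175 with that in WT. With 1 such difference per genotype, this does not settle it. In DESeq2 the 9 lost calls (Ccnb1, Plk1, Melk, Mad2l1, Espl1, Aurkb, Incenp, Kif2c and Kif4) had adjusted p of 0.0509 to 0.243, and with summed rows the 5 lost calls (Ccnb1, Plk1, Aurkb, Kif2c and Tpx2) had 0.0527 to 0.0737. Ccna2, Cdk1, Cenpe, Cenpf, Kif11, Ckap2, Ckap2l, Prc1, Anln, Iqgap3, Mki67 and Top2a passed under all alternatives apart from the 5 CPM filter, which some did not enter. The cause of the lost calls was not tested. With 2 libraries a group and 1 to 46 counts per library for Ccnb1, Ttk, Nuf2, Kif2c or Melk, fold sizes of single low genes are poorly fixed.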
